A study of Mus musculus with 3 samples.

Results

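The report concerns 9 genes of natural killer (NK) and cytotoxic lymphocytes in mouse pro-B cells with and without Pax5. They were taken from a list of names, Nkg7, Klrd1, Klrk1, Klrb1c, Cd7, Gzma, Gzmb, Prf1 and Rora, and all 9 were found by their Entrez numbers among the 27179 genes counted. RNA sequencing covered 2 Pax5-/- samples, described as independently prepared, and 1 from wild type, each of C57BL/6 bone marrow. B220+ cells, the fraction that carries the B-lineage form of CD45, had been expanded on OP9, a bone marrow stromal feeder line. Expansion on OP9 was common to all 3. The Pax5-/- samples are labelled male and the wild type female. For the Pax5-/- samples alone, the protocols state that IgM-bearing cells were depleted on magnetic beads at day 7. Genotype, sex, day and depletion therefore cannot be told apart. Neither the lesion in the Pax5 allele nor any pooling of animals is stated. Libraries held 6487846 and 6697879 counts for Pax5-/- samples 1 and 2 and 6530057 for the wild type.

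Pax5 is the transcription factor that holds cells to the B lineage, and pro-B cells that lack it are known for their capacity to form other blood cells, NK cells among them. NK cells recognise targets through lectin-like receptors encoded side by side in the NK gene complex, and they kill by releasing granules that carry a pore-forming protein, perforin, and serine proteases, the granzymes. The comparison asks which of these genes are transcribed differently when Pax5 is missing. Pax5 itself had 417 and 551 counts in Pax5-/- samples 1 and 2 against 1601 in wild type. It was lower by edgeR's quasi-likelihood test (log2 fold change -1.78, SE 0.19, adjusted p = 0.0107). Exons that an allele keeps still add to a gene's count, so the remaining reads check nothing by themselves.

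Nkg7, Klrd1 and Cd7 rose in Pax5-/-, and Gzma was higher in both Pax5-/- samples without passing the test. Klrb1c was higher in Pax5-/- sample 1, close to the wild type in sample 2, and did not pass either. Klrk1, Gzmb, Prf1 and Rora had at most 8 counts in any library and were below the filter on low counts. So 5 of the 9 were tested, of which 3 were called higher and 2 were not called. Among all 11783 genes tested, 18.1% were called in either direction, 9.53% higher and 8.55% lower in Pax5-/- (adjusted p under 0.05). A gene can pass the filter through its high group alone, so the share among the 5 describes these genes and is not a test of the list. Summed over the 9 genes, the libraries held 349 and 415 counts in Pax5-/- samples 1 and 2 against 46 in wild type. With 1 wild-type library, the spread behind the p-values comes from the 2 Pax5-/- samples alone. Each gene's estimate of it is drawn towards that of the other genes tested. In bulk RNA, a change in the number of expressing cells and a change in RNA per cell cannot be told apart.

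**Figure D1:**
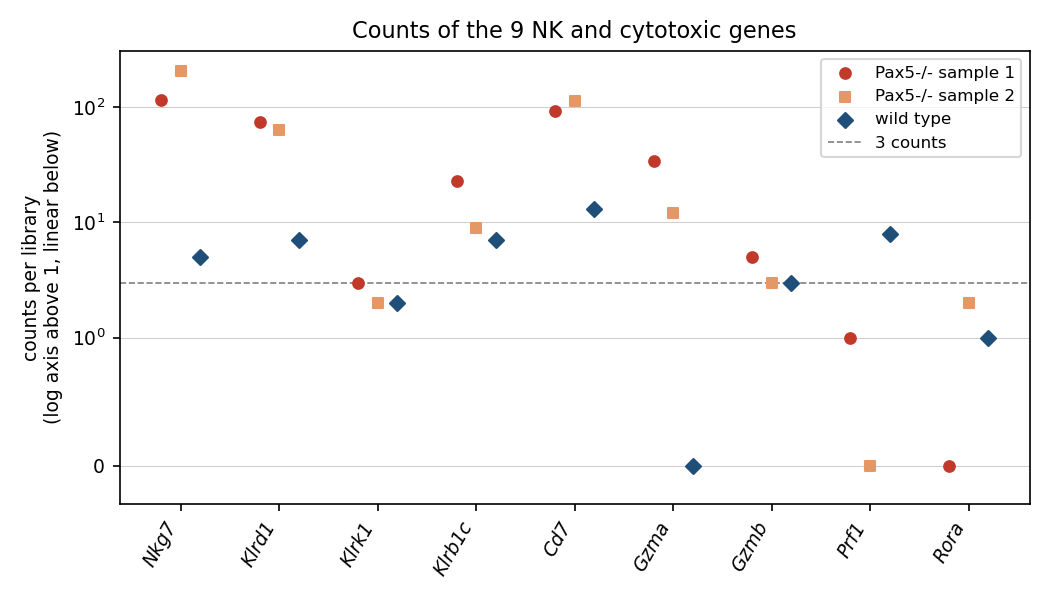
Counts of each of the 9 genes in each library (vertical axis logarithmic above 1 and linear below), with Pax5-/- samples 1 and 2 in red and orange and the wild type in blue. Nkg7, Klrd1 and Cd7 lie between 64 and 209 counts in Pax5-/- and at 5 to 13 in the wild type. Klrk1, Gzmb and Rora lie at 0 to 5 counts, around or under the dashed line at 3 counts. Prf1 lies at 1 and 0 counts in Pax5-/- and at 8 in the wild type.

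Klrd1 encodes CD94, the chain that pairs with NKG2 proteins to read nonclassical MHC class I molecules. It lies on chromosome 6 (129588092 to 129598775, mm10, plus strand) and had 75 and 64 counts in Pax5-/- samples 1 and 2 against 7 in wild type. The Pax5-/- samples did not differ beyond counting error, their ratio (sample 2 over 1) having a 95% counting interval of 0.573 to 1.15, and neither overlapped the wild type. In library-scaled counts per 1e6 (CPM) the level was 10.5 ± 1.54 (SD, n = 2) against 1.09 (log2 fold change 3.24, SE 0.43, adjusted p = 0.0179). CD94 pairs with NKG2 chains at the cell surface, and the genes of those chains were at or near 0. Klrc1, which encodes NKG2A, had 0 and 1 counts in Pax5-/- against 4, and Klrc2 and Klrc3 had 0 in every library.

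Klrk1, which encodes the activating receptor NKG2D, lies 11.5 kb beyond Klrd1 (chromosome 6, 129610323 to 129623903, mm10, minus strand) and had 3, 2 and 2 counts in the order Pax5-/- 1, Pax5-/- 2 and wild type. Its ratio of Pax5-/- to wild type was 1.21 with a 95% counting interval of 0.197 to 12.7, so no difference was detectable at this depth. Klrb1c encodes the NK1.1 antigen by which NK cells of this strain are usually recognised (chromosome 6, 128778485 to 128788641, mm10, minus strand). It had 23 and 9 counts in Pax5-/- samples 1 and 2 against 7 in wild type. Sample 2 was close to the wild type and sample 1 stood above both, at 2.69 times sample 2 (95% counting interval 1.20 to 6.59). Its difference did not pass (log2 fold change 1.14, SE 0.88, adjusted p = 0.416). As a difference of log2 CPM, Klrb1c was 1.46 above the wild type in sample 1 and 0.22 above it in sample 2. Klrb1c overlaps Gm44511 on the same strand in GENCODE, and reads of the shared stretch are uncertain.

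The 3 lectin-like receptor genes share the NK gene complex, which was read here from Klrb1a to Klra2 on chromosome 6 (128609227 to 131247716, mm10). This stretch of 2.638 Mb held 51 genes with coordinates, and 35 of them had at most 3 counts in every library. Of its 27 Klr genes and pseudogenes, 20 had at most 3 counts in every library, 4 passed the filter and 2 of these were called higher. Of all genes tested, 9.53% were called higher. Beside Klrd1 the other was Klrb1f, a relative of Klrb1c that binds Clec2 ligands, with 69 and 52 counts in Pax5-/- against 7 (log2 fold change 3.04, SE 0.50, adjusted p = 0.0277), not called by limma-voom. Klri1 and Klri2 were below the filter, with 10 and 3 against 0 counts and 9 and 10 against 1. The 13 Klra genes and pseudogenes, which encode the Ly49 receptors for MHC class I, gave 0 and 1 counts in Pax5-/- against 26. Of those 26, 15 were Klra1, which was not called (at least 10.4-fold lower, adjusted p = 0.0614) and passed under 7 of the 9 other settings tried. Ly49 genes are near-identical, and reads shared between them are uncertain.

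Transcription in the complex was not limited to NK receptors. Among its 24 other genes, 9 passed the filter and 3 were called higher (9.53% of all genes tested were). Clec12a, an inhibitory lectin of myeloid cells, had 738 and 553 counts in Pax5-/- against 12 (log2 fold change 5.69, SE 0.38, adjusted p = 0.00477). Gabarapl1, a gene of autophagy located 45.8 kb before Klrd1, rose by 1.69 in log2 fold change (SE 0.16), and the long noncoding RNA BC064078 by 2.37 (SE 0.21). Cd69, the early activation antigen, had 938, 545 and 306 counts in the order Pax5-/- 1, Pax5-/- 2 and wild type and was not called (log2 fold change 1.24, SE 0.41, adjusted p = 0.118). Clec2d, a ligand of Klrb1 receptors, was also not called, with 525, 412 and 536 counts. Between Gabarapl1 and Klrd1, both called higher, lies the receptor gene Klre1, 2.3 kb from Klrd1, which had 0, 1 and 1 counts.

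**Figure D2:**
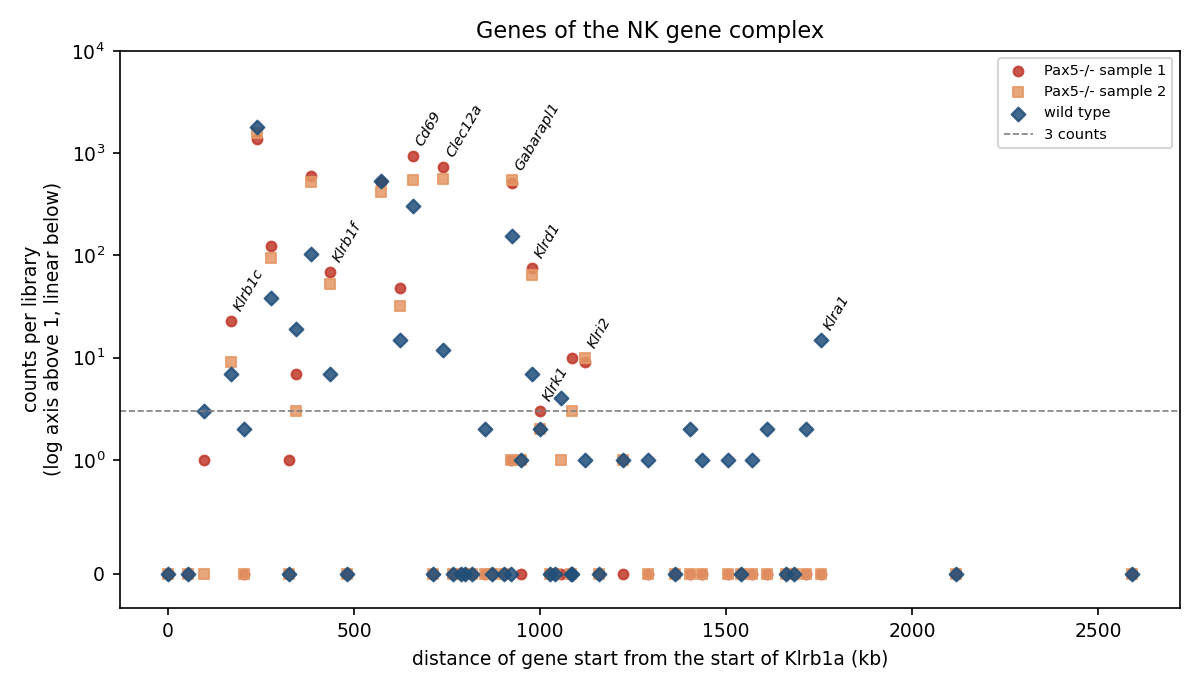
Counts per library (vertical axis logarithmic above 1 and linear below) of the 51 genes of the NK gene complex against the distance of each gene's start from that of Klrb1a in kb. Klrb1f, Clec12a, Gabarapl1 and Klrd1 stand higher in both Pax5-/- libraries than in the wild type, and 35 genes lie at or under the dashed line at 3 counts in all 3 libraries.

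Cd7, an immunoglobulin-superfamily receptor of early T and NK cells, was called higher. It lies on chromosome 11 (121036747 to 121039478, mm10, minus strand) and had 93 and 114 counts in Pax5-/- samples 1 and 2 against 13 in wild type. Its level was 15.6 ± 1.69 CPM (SD, n = 2) against 2.03 (log2 fold change 2.93, SE 0.34, adjusted p = 0.0131). Sectm1a and Sectm1b, which lie next to Cd7 and whose human relative encodes a Cd7 ligand, had 0 counts in every library. Csnk1d, 45.4 kb on the other side, was not called (1174, 1485 and 1098 counts). Cd7 overlaps the antisense gene Gm11775 in GENCODE, and the strand setting of the counting is not given in the sources used here, so their reads cannot be told apart.

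Of the 4 granule genes among the 9, Nkg7 had the highest level in both Pax5-/- samples and was the 1 called. Nkg7 encodes a membrane protein of cytotoxic granules that takes part in their release and lies on chromosome 7 (43437138 to 43438246, mm10, plus strand). It had 115 and 209 counts in Pax5-/- samples 1 and 2 against 5 in wild type. Sample 2 was 1.73 times sample 1 (95% counting interval 1.37 to 2.19), a gap beyond counting error, yet both were far above the wild type. The level was 24.2 ± 9.16 CPM (SD, n = 2) against 0.780 (log2 fold change 4.92, SE 0.63, adjusted p = 0.0167). With limma-voom the call was lost (adjusted p = 0.0699, range over the 9 other settings 9.36e-11 to 0.0699). Its neighbourhood held genes that moved in opposite directions. Siglecg, an inhibitory receptor of B cells 18.8 kb before Nkg7, had 4 and 0 counts in Pax5-/- against 932, while Cd33, 89.2 kb beyond it, had 383 and 527 against 1. Etfb, a mitochondrial gene 5.8 kb beyond Nkg7, was not called (729, 756 and 524 counts).

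Gzma and Gzmb encode granzymes A and B, the tryptase and the aspartate-specific protease of cytotoxic granules. Gzma (chromosome 13, 113093824 to 113100981, mm10, minus strand) had 34 and 12 counts in Pax5-/- samples 1 and 2 against 0 in wild type. The samples differed from each other, sample 1 being 2.98 times sample 2 (95% counting interval 1.50 to 6.31), and both lay above the wild type. With both Pax5-/- samples pooled, Gzma was at least 7.40-fold higher, set against 3 counts in the wild type, and was not called (adjusted p = 0.0828). The bound does not hold for each sample alone. It passed the threshold with DESeq2 (adjusted p = 0.0341), the likelihood ratio test, an assumed variation and the filter of 5 counts, its adjusted p ranging from 0.000461 to 0.102 over the 9 other settings. Gzmb (chromosome 14, 56258836 to 56262334, mm10, minus strand) had 5, 3 and 3 counts, a ratio of 1.29 (95% counting interval 0.309 to 7.53). Prf1, which encodes perforin (chromosome 10, from 61297751, mm10, plus strand), had 1 and 0 counts in Pax5-/- against 8. The wild type stood 16.6 times higher (95% counting interval 2.22 to 736), Prf1 was below the filter, and it was not called where 5 counts in all sufficed. Nkg7 and Prf1, genes of the same granules, thus stood at 115 and 209 counts and at 1 and 0 counts in Pax5-/-.

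The 250 bases before the start sites of these granule genes are shown because the 4 differed in level and call: Nkg7 was called higher, Gzma was higher without passing, and Gzmb and Prf1 had at most 8 counts in any library. They are RefSeq sequences of GRCm38.p6 (called mm10 in the processing notes), read 5′ to 3′ on each gene's own strand. Each ends at the base before the start site used. For Prf1 that site lies inside the gene as located above (from 61297751), so its window runs into the gene. Promoters were matched for 7 of the 9 genes, and Klrd1 and Cd7 had no entry. The stretches are chr7:43436888-43437137 for Nkg7, chr13:113100982-113101231 for Gzma, chr14:56262335-56262584 for Gzmb and chr10:61297586-61297835 for Prf1. Capitals mark matches, on either strand, to RUNX (TGTGGT), T-box (GGTGTGA), ETS (AGGAAG), E-box (CAGCTG and CAGGTG), ROR half-site (AGGTCA) and TCF/LEF (CTTTGA) letters.
Nkg7: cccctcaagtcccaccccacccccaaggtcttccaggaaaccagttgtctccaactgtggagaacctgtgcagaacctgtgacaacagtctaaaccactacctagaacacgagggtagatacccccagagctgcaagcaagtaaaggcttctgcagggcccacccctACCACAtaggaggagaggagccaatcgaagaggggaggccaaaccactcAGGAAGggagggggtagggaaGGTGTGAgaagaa
Gzma: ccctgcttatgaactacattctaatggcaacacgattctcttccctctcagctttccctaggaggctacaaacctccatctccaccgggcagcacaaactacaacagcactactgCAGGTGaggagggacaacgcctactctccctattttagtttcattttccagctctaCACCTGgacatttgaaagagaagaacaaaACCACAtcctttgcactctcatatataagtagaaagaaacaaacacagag
Gzmb: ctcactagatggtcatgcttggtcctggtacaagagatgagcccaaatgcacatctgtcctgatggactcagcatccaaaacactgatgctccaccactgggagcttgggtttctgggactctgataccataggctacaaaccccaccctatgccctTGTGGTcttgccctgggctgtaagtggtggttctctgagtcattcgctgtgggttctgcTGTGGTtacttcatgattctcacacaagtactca
Prf1: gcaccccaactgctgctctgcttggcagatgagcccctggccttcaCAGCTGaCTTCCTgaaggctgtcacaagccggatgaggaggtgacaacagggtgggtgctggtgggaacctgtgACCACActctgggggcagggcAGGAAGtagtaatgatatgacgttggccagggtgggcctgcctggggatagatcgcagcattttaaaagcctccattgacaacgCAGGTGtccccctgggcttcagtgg

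A match describes the letters and says nothing about binding. Every one of these 4 stretches held RUNX letters, as did 14.0% of all 32851 promoter windows of the same length. In Nkg7 they lay 83 bases before the start, followed by ETS letters at 34 bases and T-box letters at 13 bases, none overlapping. Of all windows, 29.5% held ETS and 3.33% T-box letters. Gzma held CAGGTG letters at 135 and 79 bases (17.2% of windows) and RUNX letters at 50 bases. Gzmb held RUNX letters alone, at 93 and 34 bases. Prf1 held CAGCTG letters at 204 bases (13.0% of windows), ETS letters at 197 and 109 bases, RUNX letters at 130 bases and CAGGTG letters at 25 bases. Its distances run to the start site used for its window, which lies inside the gene as located above. None of the 4 held ROR half-site letters (14.0% of windows) or TCF/LEF letters (13.8%). RUNX letters were thus present in the gene that was called higher and in the 3 that were not. Of the other matched windows, not shown, those of Klrb1c and Klrk1 held RUNX letters and that of Rora held none.

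Gzmb lies at the end of a cluster of granule proteases on chromosome 14 (55941451 to 56262334, mm10), and this cluster was singled out after its values were seen. Of its 16 protease genes and pseudogenes, 11 had 0 counts in every library, 5 had counts, and the 3 that passed the filter were called higher. Of all genes tested, 9.53% were called higher. The 3 passed the filter through Pax5-/- alone, so their share is not a test of the cluster. Mcpt8, a basophil protease, had 80 and 91 counts in Pax5-/- against 1 (82.5 times the wild type, 95% counting interval 14.6 to 3280, adjusted p 0.00758). Ctsg, which encodes the neutrophil protease cathepsin G, had 83 and 91 against 6 (log2 fold change 3.78, SE 0.38, adjusted p = 0.00997). Gzme, a granzyme of activated killer cells, had 24 and 30 against 0 and was at least 8.69-fold higher (adjusted p = 0.0229). Gzmd, next to Gzme, had 2 and 5 against 0, and Gzmg, Gzmn, Gzmf and Gzmc had none. Mcpt8, Ctsg and Gzme are neighbours in this order, and the mast cell proteases before them (Cma1, Mcpt1, Mcpt2, Mcpt4 and Mcpt9) had 0 counts. Granzymes d to g are close copies of one another, so the split between them is uncertain. Outside the cluster, Gzmk had 0 counts in every library and Gzmm 5 and 3 against 0.

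**Figure D3:**
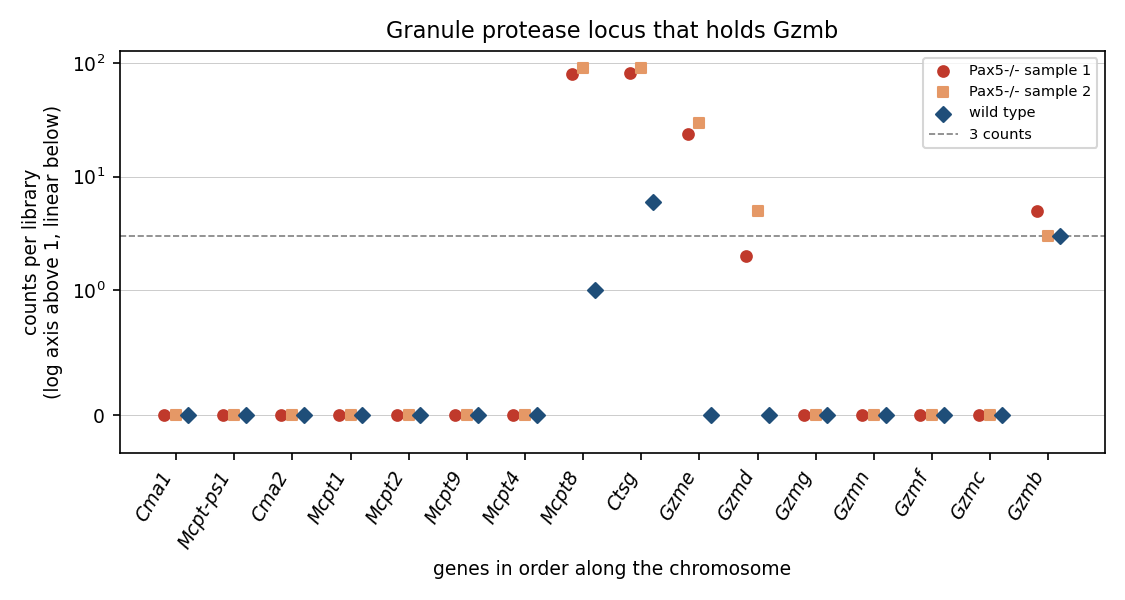
Counts per library (vertical axis logarithmic above 1 and linear below) of the 16 protease genes and pseudogenes of the locus that ends with Gzmb, in their order along the chromosome. Mcpt8, Ctsg and Gzme stand at 24 to 91 counts in Pax5-/- and 0 to 6 in the wild type, and 11 genes are at 0 in all 3 libraries.

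Rora encodes a nuclear receptor needed for innate lymphoid type 2 cells. On chromosome 9 (from 68653404, mm10, plus strand) it had 0 and 2 counts in Pax5-/- samples 1 and 2 against 1 in wild type. Both groups were at or under 3 counts, so no fold is given. Rora is overlapped by 9530091C08Rik, at 0 in every library, and by the antisense gene Gm15511 in GENCODE. Its relative Rorb had 0 counts in every library. Ice2, a gene of small nuclear RNA transcription 9.7 kb beyond Rora, had 237, 259 and 134 counts and rose by 0.84 in log2 fold change (SE 0.16, adjusted p = 0.0383).

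Per length of gene (CPM per kb of the deposited gene length), the 9 genes spanned a wide range in Pax5-/-. Nkg7 led with 21.8 and 37.8 in samples 1 and 2, followed by Cd7 with 13.8 and 16.1 and Klrd1 with 13.4 and 10.9. Gzma had 5.98 and 2.01, Klrb1c 1.35 and 0.502 and Gzmb 0.544 and 0.311. The values of Klrb1c and Gzmb overlapped, as did those of the 3 lowest genes, Klrk1, Rora and Prf1, which were at or under 0.178 CPM per kb. In the wild type the order was another. Cd7 stood at 1.95, Klrd1 at 1.26, Nkg7 at 0.959 and Prf1 at 0.608 CPM per kb. The remaining 5 genes were at or under 0.415, each resting on 7 or fewer counts.

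The partners and relatives of these genes were read from 6 lists of NK biology with 111 further genes, of which 105 were counted. In all, 55 passed the filter, and of these 24 were called higher, 4 lower and 27 not called, where 9.53% of all genes tested were called higher and 8.55% lower. The same background shares stand beside each list's counts that follow. The median log2 fold change of the 55 was 1.08, beside 0.01 for all genes tested, and it covers only genes that passed the filter. With the biological coefficient of variation set at 0.4 throughout, 13 were called higher. The 14 genes that lost their call were Zap70, Sh2d2a, Plcg2, Srgn, Unc13d, Rab27a, Id2, Nfil3, Tox, Tcf7, Runx3, Ets1, Zeb2 and Il7r. At 5 counts in all, 7 related genes were called lower, and with library size alone 2.

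**Figure D4:**
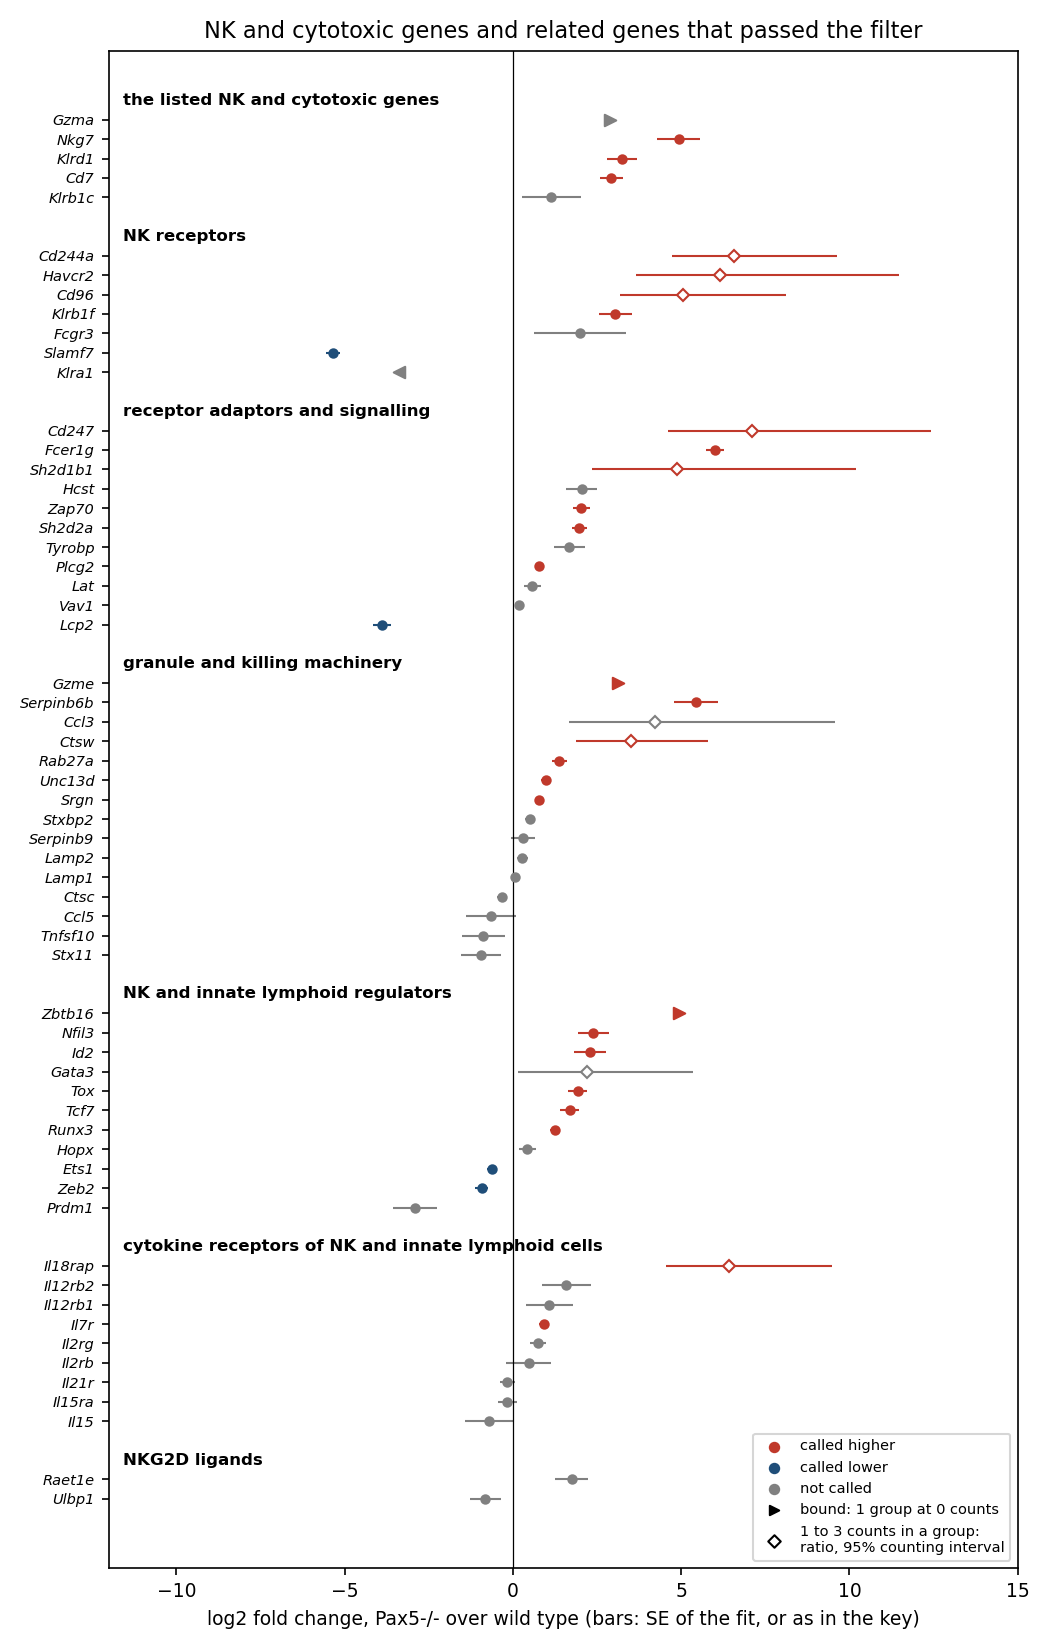
Log2 fold change of Pax5-/- over wild type (horizontal axis) for the 5 tested genes of the 9 and the 55 tested related genes, grouped by list. Filled points carry the SE of the fit, open diamonds mark genes with 1 to 3 counts in a group and show the ratio with its 95% counting interval, and triangles mark bounds where a group had 0 counts. Genes called higher are red, genes called lower blue (Slamf7, Lcp2, Ets1 and Zeb2) and genes not called grey.

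Most NK receptors outside the 9 were at or near 0, and a few rose. Of 34 listed, 23 had at most 3 counts in every library and 7 passed the filter, with 4 called higher, 1 lower and 2 not called. Cd244a, which encodes the SLAM-family receptor 2B4, had 180 and 216 counts against 2 (95.5 times the wild type, 95% counting interval 26.3 to 792, adjusted p 0.00415). Havcr2, which encodes TIM-3, had 71 and 76 against 1 (70.9 times the wild type, interval 12.5 to 2820, adjusted p 0.00847). Cd96, a receptor for the adhesion molecule CD155, had 88 and 49 against 2 (33.1 times the wild type, interval 8.98 to 276, adjusted p 0.0301), not called by limma-voom. The member that fell was Slamf7, another SLAM-family receptor, with 32 and 26 counts against 1147 (log2 fold change -5.35, SE 0.20, adjusted p = 0.00272). Fcgr3, an activating receptor for IgG, was not called, with 5, 29 and 4 counts. Ncr1, the natural cytotoxicity receptor that defines NK cells, had 0, 0 and 1.

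Signalling adaptors of these receptors were more broadly present. Of 12 listed, 11 passed the filter, with 6 called higher, 1 lower and 4 not called. Fcer1g, the Fc receptor gamma chain through which the NK1.1 receptor signals, had 1116 and 1437 counts in Pax5-/- against 19 (192 ± 27.5 CPM, SD, n = 2, against 2.96; log2 fold change 6.01, SE 0.27, adjusted p = 0.00297). Cd247, the zeta chain of T-cell receptor and NK receptor complexes, had 91 and 194 against 1 (138 times the wild type, 95% counting interval 24.5 to 5450, adjusted p 0.0213), not called by limma-voom. Sh2d1b1, which encodes the adaptor EAT-2 of SLAM-family receptors, had 33 and 28 against 1 (29.4 times the wild type, interval 5.09 to 1180, adjusted p 0.0271). Lcp2, which encodes SLP-76, fell from 229 counts to 18 and 14 (log2 fold change -3.88, SE 0.27, adjusted p = 0.00503). Hcst and Tyrobp, the adaptors DAP10 and DAP12 through which NKG2D signals, were not called. They had 33, 36 and 8 and 55, 92 and 22 counts in the order Pax5-/- 1, Pax5-/- 2 and wild type (adjusted p = 0.0552 and 0.0793). Vav1, an exchange factor of many receptors, and the scaffold Lat were not called either (log2 fold changes 0.19, SE 0.12, and 0.58, SE 0.24).

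Genes of granules and killing came next. Of 26 listed, 25 were counted and 15 passed the filter, with 6 called higher and 9 not called. Gzme, described above, was 1 of the 6. Serpinb6b, a protease inhibitor, had 285 and 169 counts against 5 (log2 fold change 5.43, SE 0.65, adjusted p = 0.0144), not called by limma-voom. Ctsw, a cathepsin of cytotoxic lymphocytes, had 32 and 38 against 3 (11.3 times the wild type, 95% counting interval 3.70 to 55.9, adjusted p 0.0289). Rab27a, the GTPase that docks granules at the membrane, rose by 1.38 in log2 fold change (SE 0.23, adjusted p = 0.0279). Unc13d, the priming factor of granule fusion, rose by 0.99 (SE 0.15), and Srgn, the proteoglycan of the granule matrix, by 0.77 (SE 0.11), which the likelihood ratio test did not call. Lamp1 and Lamp2, lysosomal membrane proteins found in granules, were not called (log2 fold changes 0.07 and 0.28). Ifng, the NK cytokine, had 0, 0 and 1 counts.

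Transcription factors of NK and innate lymphoid cells moved in both directions. Of 18 listed, 17 were counted and 11 passed the filter, with 6 called higher, 2 lower and 3 not called. Zbtb16, which encodes PLZF of innate lymphoid precursors, had 54 and 137 counts against 0. It was at least 30.7-fold higher with both samples pooled (adjusted p = 0.0326), and not called by limma-voom. Nfil3 and Id2, both required early in NK development, rose, the first by 2.39 (SE 0.46, adjusted p = 0.0385) and the second by 2.30 (SE 0.48, adjusted p = 0.0463) in log2 fold change. Both calls were lost with limma-voom, and that of Id2 also with library size alone. Tox rose by 1.92 (SE 0.27), Tcf7 by 1.68 (SE 0.28) and Runx3 by 1.25 (SE 0.16). Zeb2, a factor of late NK maturation, fell by 0.92 (log2; SE 0.19, adjusted p 0.0467), and Ets1 by 0.63 (SE 0.13, adjusted p = 0.0489), both near the threshold. The call of Zeb2 was lost with library size alone and in the likelihood ratio test, and that of Ets1 in those and with limma-voom. Tbx21 and Eomes, the T-box factors of mature NK cells, had 0, 0 and 0 and 0, 0 and 1 counts. Hopx and Gata3 were not called, with 74, 77 and 54 and with 4, 15 and 2 counts. Prdm1, with 2 and 3 counts in Pax5-/- against 19, was not called either (log2 fold change -2.92, SE 0.66, adjusted p = 0.054). It was called lower with RLE scaling, robust dispersion, the likelihood ratio test, limma-voom, the assumed variation and the filter of 5 counts.

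Cytokine receptors were mostly not called. Of 12 listed, 9 passed the filter, with 2 called higher and 7 not called. Il18rap, the accessory chain of the interleukin-18 receptor, had 172 and 184 counts against 2 (85.9 times the wild type, 95% counting interval 23.6 to 712, adjusted p 0.00404). The ligand-binding chain, Il18r1, had 7, 3 and 1 counts and was below the filter. Il7r rose by 0.92 in log2 fold change (SE 0.13). Il2rb, the interleukin-2 and interleukin-15 receptor chain on which NK cells depend, was not called, with 15, 37 and 18 counts (log2 fold change 0.47, SE 0.68, adjusted p = 0.659). Il2rg, the common gamma chain, and Il21r were not called (log2 fold changes 0.75, SE 0.23, and -0.16, SE 0.21). Of 9 listed ligands of NKG2D, 5 were counted and 2 passed the filter, and neither Raet1e (29, 41 and 10 counts) nor Ulbp1 (32, 67 and 84 counts) was called.

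Markers of cell types that a culture could hold were read beside these results. For NK cells, the 8 defining markers summed to 5.87 and 7.05 CPM in Pax5-/- samples 1 and 2 and 4.52 in the wild type, and 6 of the 8 had at most 3 counts in every library. At 0 in both Pax5-/- samples were Ncr1, Eomes, Tbx21 and Klra8. The 9 T-cell markers summed to 19.1, 22.8 and 15.3 CPM, nearly all of it Lat, and Cd3e, Cd3d, Cd3g and Bcl11b had 0 or 1 counts in Pax5-/-. For innate lymphoid type 2 cells the 6 markers summed to 0.617, 2.20 and 0.780 CPM, with Il5 and Il17rb at 0 in every library. Apart from Klrb1c, Il2rb, Lat and Gata3, the markers of these 3 lists had at most 7 counts in any library, including those in which Nkg7, Klrd1 and Cd7 rose.

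Some markers of myeloid and dendritic cells did move. The 8 mast cell and basophil markers summed to 20.7 and 23.9 CPM in Pax5-/- and 0.156 in the wild type. That sum came from Mcpt8 and from Cpa3, a mast cell protease with 51 and 70 counts against 0, whereas Fcer1a, Ms4a2, Prss34, Cma1 and Tpsb2 were at 0 in every library. The plasmacytoid dendritic list of 8 summed to 1852, 727 and 873 CPM. Within it, 7 passed the filter, with 2 called higher and 5 not called (9.53% of all genes tested were called higher). Ccr9 and Siglech rose, Siglech not being called by limma-voom. Irf7 and Bst2 were high in Pax5-/- sample 1 alone and were not called. Cox6a2, Tcf4 and Ly6d were not called either (log2 fold changes 1.45, -0.13 and 0.20). Klk1, below the filter, had 0 counts in both Pax5-/- samples against 8. Neutrophil and monocyte markers, 9 in number, summed to 50.0, 57.0 and 76.4 CPM and moved both ways. Of these, 8 passed the filter, with 3 called higher and 3 lower, beside 9.53% and 8.55% of all genes tested. Ctsg, Prtn3 and Lyz2 rose, Prtn3 from 10 counts to 126 and 116 and Lyz2 from 28 to 92 and 128, the latter not called by limma-voom or with the assumed variation. S100a8, S100a9 and Ngp fell, from 30, 232 and 115 counts to 0 in both Pax5-/- samples. The 7 stromal markers summed to 9.88, 10.6 and 29.6 CPM, and of the 5 that passed the filter 0 were called. Fn1 and Cxcl12 had 11, 26 and 76 and 18, 7 and 60 counts, and Pdgfrb went the other way with 15, 18 and 4. Of 12 pro-B markers all passed the filter, and they summed to 3537, 3923 and 6024 CPM. Among them Rag1, Dntt, Il7r and Ptprc rose (Rag1 and Ptprc were not called by the likelihood ratio test), while Cd79a, a signalling chain of the B-cell receptor, had 513 and 740 counts against 6434 and fell (log2 fold change -3.42, SE 0.21, adjusted p = 0.0045). The part of these other cell types in the results for the 9 genes was not tested.

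**Figure D5:**
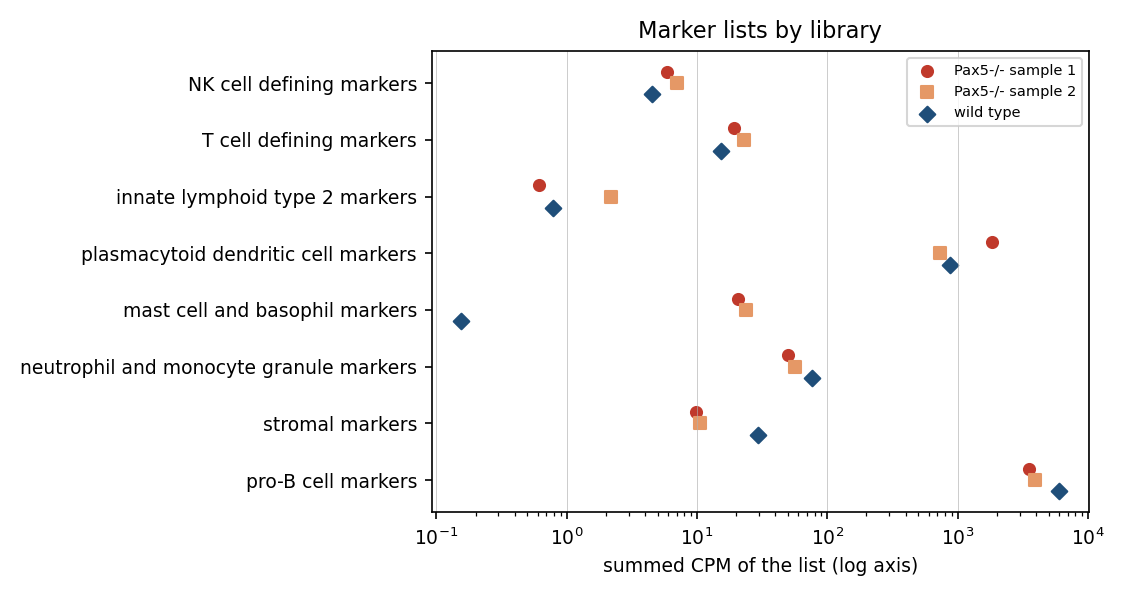
Summed CPM (logarithmic horizontal axis) of 8 marker lists in each library, with Pax5-/- samples 1 and 2 in red and orange and the wild type in blue. The NK list lies between 4.52 and 7.05 CPM in all 3 libraries, and the mast cell and basophil list lies at 20.7 and 23.9 CPM in Pax5-/- against 0.156 in the wild type.

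Genes nearest in pattern to the called genes were sought among tested genes whose mean CPM was within 2 times that of each, by Euclidean distance of centred log2 CPM over the 3 libraries. Over 3 libraries such likeness is a description. Nearest to Nkg7 among 3156 candidates were Zfhx3 (distance 0.22), Igsf5, Osbpl3, Fnip2 and Dmd (distance 0.32). For Klrd1, among 2160 candidates, they were Raph1 (0.07), Eml6, Slc16a7, Phldb1 and Ptger2 (0.18). For Cd7, among 2634 candidates, they were Ccdc40 (0.03), Ninl, Pomgnt2, Acot11 and Med12l (0.16). All 15 were called higher in Pax5-/-, which their choice by this distance implies.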

How the data were processed

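RNA was extracted with a column kit and read into gene counts with featureCounts on mm10, per the labels' protocols and the submitters' processing notes. No source used here gives the aligner, gene annotation or strandedness. The deposited values are raw counts per Entrez gene, and the 3 sample tables equal the series table in all 27179 genes. Entrez numbers were matched to symbols and GRCm38.p6 positions through RefSeq for 93.0% of genes.

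Genes were filtered with edgeR (4.0.16, filterByExpr, minimum count 10) and scaled by TMM. They were tested by the quasi-likelihood test with Benjamini-Hochberg adjustment over all 11783 genes tested, at 0.05. Each gene's spread had 1 residual degree of freedom and was moderated over all genes tested (prior degrees of freedom 3.15). The SE was derived from the log2 fold change and its F statistic. CPM uses TMM-scaled library sizes, and log2 CPM a prior count of 2. Fold bounds set a group at 0 against 3 counts over the group, with the counts of both Pax5-/- samples pooled. Ratios of 1 to 3 counts carry exact (Clopper-Pearson) 95% intervals, which cover counting error only. For 1 library, 3 counts amount to 0.463, 0.441 and 0.468 CPM. The script was tested on simulated data. Alternatives were other scalings and filters, the likelihood ratio test, robust dispersion, an assumed variation, limma-voom (limma 3.58.1), DESeq2 (1.42.0) and leaving out each Pax5-/- sample.

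The 9 genes and the lists were chosen with earlier results of these data known. Of each related list, up to 4 called genes by size of change and up to 2 not called by level were named, with paralogs and cell type markers. Other genes (neighbours, genes of the NK complex and protease cluster, and Hcst, Tyrobp, Unc13d, Srgn, Ifng, Tcf7, Runx3, Ets1, Zeb2, Gata3 and Il18r1) were named after their values were seen.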

Additional observations from a re-analysis of the deposited data

How the results depend on the processing

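Under the 9 other settings the 9 genes gave 2 calls of higher expression with limma-voom, 3 with 4 settings and 4 with a filter of 5 counts in all, the likelihood ratio test, the assumed biological coefficient of variation of 0.4 and DESeq2. Klrd1 and Cd7 passed under every one of these settings, Nkg7 under all but limma-voom (adjusted p = 0.0699), and Klrb1c under none. Gzma was the additional call (adjusted p = 0.0494, 0.000461, 0.000709 and 0.0341 in that order). With the assumed variation, 623 genes were called higher and 583 lower over the whole table, against 1123 and 1007, and 13 related genes were called higher, against 24. Related genes called lower numbered 2 with library size alone and 7 with the filter of 5 counts, against 4. The cause of these moves was not tested.

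Leaving out 1 Pax5-/- sample leaves 1 library against 1 and gives no test. The log2 CPM difference then ranged from 4.06 to 4.84 for Nkg7, 2.80 to 3.09 for Klrd1, 2.65 to 2.87 for Cd7, 2.76 to 4.19 for Gzma and 0.22 to 1.46 for Klrb1c. For Gzmb (-0.05 to 0.48), Klrk1 (-0.04 to 0.32) and Rora (-0.60 to 0.38) the sign changed. Prf1 ranged from -2.35 to -1.76. No paired analysis was possible because the labels give no pairing between the genotypes. Klrk1, Gzmb, Prf1 and Rora rest on 8 counts or fewer a library, which limits what can be detected.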
